A study of Arabidopsis thaliana with 24 samples.

Results

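Cultured cells and etiolated seedlings of Arabidopsis thaliana that grew in orbit in the same BRIC-16 experiment were compared with each other. The members were taken from the sample labels: 6 flight samples of cultured cells and 6 flight samples of seedlings, 12 of the 24 samples of the series. RNA of each sample had been hybridised to one single-colour Affymetrix ATH1 array. The other 12 samples, ground cells and ground seedlings in equal number, were used only where the difference between the materials in orbit was set against the same difference on the ground.

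Every group was Col-0, wild type and non-transgenic, and lay in the dark on 60 mm plates of nutrient agar. The flight cells were tissue culture cells derived from hypocotyls, washed from a liquid suspension and spread at about 1 g on each plate, which then stayed at room temperature. The flight seedlings were germinated from about 75 seeds on each plate, and those plates were held at 4 °C until handover. RNAlater, a fixative that preserves RNA, was added to both flight groups while still in orbit, 12 days and 21 hours into the flight; the age label of all groups reads 7 days. Ground cells and ground seedlings were the unit-gravity controls of the same 2 materials. The cells had been kept at another temperature before handover than the seeds, so that storage and material cannot be told apart. A cell plate held a mass of cells from a suspension culture and a seedling plate held whole plants, so each array averages over many cells. In such bulk samples fewer cells of a type and less RNA per cell cannot be told apart.

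Plant cells in suspension culture divide and enlarge without forming organs, and live on the sugar of the medium. Etiolated seedlings germinate in the dark and live first on the reserves of the seed: the hypocotyl elongates, the plastids stay without chlorophyll, and epidermis, vascular strands and root are all formed. Heat shock proteins are chaperones that bind unfolded proteins and are made in many kinds of stress, under heat shock factors such as HSFA2.

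The arrays of the 2 materials differed in quality, and this touches every value given here. A probe set was taken as above background when its intensity exceeded that of 95% of the 27 control probe sets of bacterial genes on the same array. Of all probe sets, 9.94% at the lowest, 14.9% at the median and 76.7% at the highest were above background in flight cells, against 56.6%, 61.4% and 66.7% in flight seedlings. The groups overlapped through cell replicate 5 alone, which had the 76.7%; the other 5 cell arrays lay between 9.94% and 29.4%. The difference of -35.7 percentage points had p = 0.0152 (exact permutation test over 6 and 6 arrays, two-sided; adjusted p = 0.0152 over the 7 array measures tested; the smallest p this test can give is 0.00216). The hybridisation control cre was brighter on the cell arrays, at 19.81 ± 1.03 against 17.02 ± 0.51 on the seedling arrays (log2 of intensity, mean ± SD, n = 6 each; exact permutation, adjusted p = 0.00379). The 5S ribosomal RNA control stood at 16.66 ± 0.55 on cell arrays and 11.98 ± 0.60 on seedling arrays (adjusted p = 0.00379, exact permutation). The signal at the 3' end of actin minus that at the 5' end was -2.79 ± 1.22 in cells and -0.73 ± 0.39 in seedlings (adjusted p = 0.00379, exact permutation). How much these array measures contribute to the differences between genes was not tested.

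**Figure D1:**
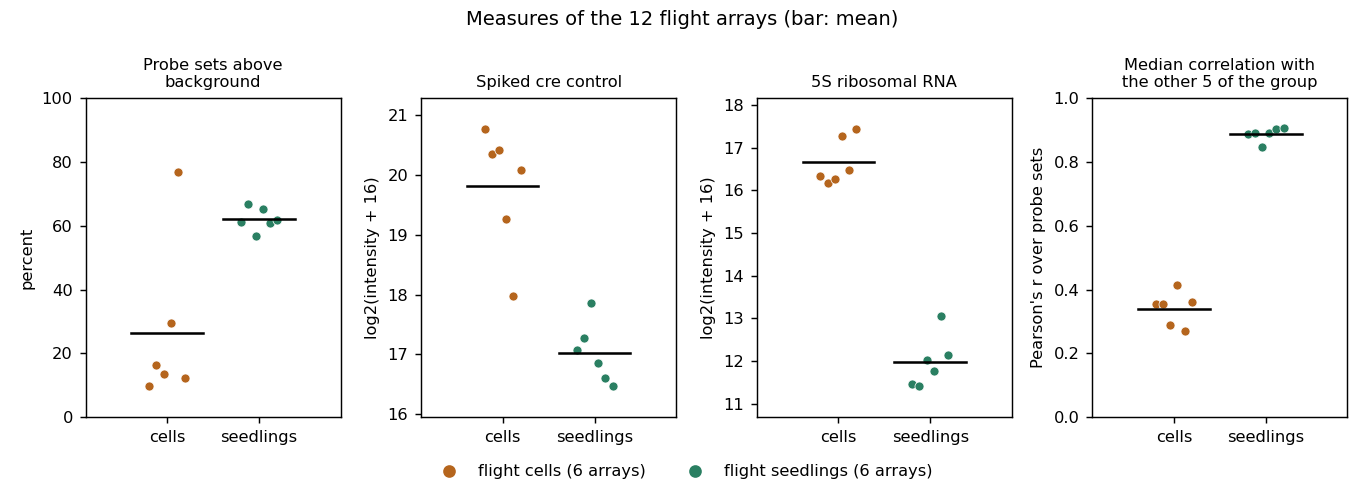
Measures of array quality in 4 panels, with one point for each array and flight cells left of flight seedlings: the percent of probe sets above background, the cre hybridisation control and the 5S ribosomal RNA control (log2 of intensity), and the median Pearson correlation of each array with the other 5 of its group. Cell replicate 5 stands apart in the first panel at 76.7%, and the cell arrays correlate less with each other than the seedling arrays do. The correlations use values quantile normalized over all 24 arrays.

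All levels below are log2(intensity + 16) after quantile normalization over the 12 arrays, and all differences are flight cells minus flight seedlings on that scale, which understates the change of dim genes. Pearson correlations over 22746 probe sets ran between 0.23 and 0.51 for the 15 pairs of cell arrays, with a median of 0.32, and between 0.84 and 0.92 for the 15 pairs of seedling arrays. The 36 pairs of a cell and a seedling array had a median of 0.33, so single cell arrays were about as like a seedling array as like each other. The median SD of a probe set was 1.51 in cells and 0.55 in seedlings. Averaged over its 6 arrays, the mean of flight cells correlated at 0.74 with that of ground cells and at 0.52 with that of flight seedlings; these are descriptions over probe sets, which share arrays and are not independent.

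Of the 22746 probe sets, 6270 passed the test in one direction or the other (27.6%; limma, Benjamini-Hochberg adjusted p under 0.05). In flight cells 2900 were higher (12.7%) and 3370 were lower (14.8%) than in flight seedlings. The higher and the lower calls differed in brightness. Of the calls lower in cells, 3230 were above background on all 6 seedling arrays (14.2% of all probe sets), whereas 170 of those higher in cells were above background on all 6 cell arrays (0.747%). For 1160 of the higher calls at most 1 cell array was above background. The groups did not overlap for 753 probe sets with all cell arrays above (3.31%) and 2014 with all cell arrays below (8.85%). Without quantile normalization the median of all probe sets moved to 0.75, against 0.07 with it, and 71.9% of the calls were higher in cells, against 46.3%. Directions given here are therefore relative to the bulk of the probe sets on the normalized scale.

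Genes dim in plants and genes bright in plants lay on opposite sides. With probe sets ordered by their mean in ground seedlings, which took no part in the comparison, the median difference was 1.26, 1.01, 0.03, -0.93 and -1.57 from the dimmest to the brightest of 5 classes of equal size. In the brightest class, of 4550 probe sets, 128 were higher in flight cells and 2046 lower. In the dimmest 1221 were higher and 9 lower. Because of this gradient a gene higher in cells is described in full below only where all 6 cell arrays were above background. Shares lower in lists of genes bright in seedlings are to be read against the brightest class as well. Whether a list was lower than genes of like brightness was not tested.

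Position in the hardware ran largely with material. The labels place 4 cell samples in canister B and 5 seedling samples in canister A, while 2 cell samples and 1 seedling sample shared canister G. With canister as a block no probe set passed the test (limma; 3078 had an unadjusted p under 0.05), in a fit whose difference between the materials comes from those 3 arrays. Without canister G 4701 passed, 2055 higher and 2646 lower in cells. Within canister G both cell arrays lay above the seedling array for 66.9% of those higher calls, against 32% of all probe sets, and below it for 77.6% of those lower calls, against 33.6% of all. Replicates are separate samples by their labels and biological replicates by the deposited description of the authors' tables; where they came from separate dishes only, the p-values measure the spread between dishes. Precision is limited by the number of arrays.

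The label of the cell samples could be checked only in part. Of 63 markers of cell types named from general knowledge, 58 had a probe set. In flight cells 2 of these 58 were above background on at least 4 arrays, LRX1 of root hairs and EM1 of seeds, and in flight seedlings 27 were. None of the 6 callus markers reached that level on the cell arrays, nor did any of the 6 of shoot epidermis. In flight seedlings 5 of 6 epidermis markers, 4 of 4 markers of photosynthetic tissue and 4 of 6 markers of shoot meristem and leaf were above background on at least 4 arrays. Over the 58 markers 13 were higher and 8 lower in cells, where 12.7% and 14.8% of all probe sets were. The sums that follow are of intensity without quantile normalization. Background was 171.1 to 1278 on cell arrays and 79.7 to 158.1 on seedling arrays, and its part in the sums was not tested. The summed intensity of the epidermis markers was 1825 to 2434 in flight cells and 2865 to 7456 in flight seedlings, with no overlap. For the stomata and trichome markers the sums were 960.2 to 3335 in flight cells and 65.2 to 426.8 in flight seedlings, although none of those 5 markers was above background on 4 arrays of either material. The sums for seed markers overlapped, at 1995 to 4204 in flight cells and 191.9 to 5885 in flight seedlings.

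Flight cells held high levels of a set of stress genes that were far dimmer in flight seedlings. HSP17.6A (AT5G12030), a cytosolic small heat shock protein, had the largest difference among genes that met the naming rule. That rule took only genes with separate groups and all 6 arrays of the brighter material above background. Neither trait is therefore a finding about the leading genes. Its levels in flight cells were 11.80 at the lowest, 14.74 at the median and 15.47 at the highest, against 5.46, 6.00 and 6.81 in flight seedlings. The groups were far apart, and no seedling array was above background. The gene was at least 141-fold higher in flight cells, where the bound sets the cell mean against the lowest signal that counts as above background (measured difference 8.33, SE 0.63, limma adjusted p = 1.16e-08). HSP17.4 (AT3G46230), a small heat shock protein of another class, ran from 13.81 to 16.71 in flight cells, with a mean of 15.79, and from 8.22 to 9.50 in flight seedlings, with a mean of 8.97. All 12 arrays were above background for this gene, and the difference was 6.82 (SE 0.59, adjusted p = 5.11e-08).

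The regulator and the large chaperones of the same response went with them. HSFA2 (AT2G26150), the heat shock factor that sustains the response, had 13.16, 15.27 and 15.86 in flight cells and 7.26, 8.62 and 9.51 in flight seedlings (difference 6.40, SE 0.62, adjusted p = 2.12e-07). Its lowest cell array was well above its highest seedling array. Hsp70b (AT1G16030), a chaperone of the 70 kDa class, had 11.95, 14.53 and 15.86 in flight cells and 8.94, 9.22 and 9.74 in flight seedlings (difference 5.14, SE 0.63, adjusted p = 4.55e-06). HSP101 (AT1G74310), which pulls aggregated proteins apart, had 10.64, 15.41 and 15.94 in flight cells and 9.22, 9.68 and 9.80 in flight seedlings (difference 5.03, SE 0.73, adjusted p = 3.27e-05). For both genes the groups did not overlap, but cell replicate 5 came within 1 unit of the seedlings for HSP101.

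The other leading genes lay outside the chaperones. LCR67 (AT1G75830), a plant defensin, had 10.00, 13.10 and 13.62 in flight cells and 4.98, 5.38 and 6.74 in flight seedlings. It was at least 42-fold higher in flight cells, since no seedling array was above background (measured difference 7.00, adjusted p = 1.65e-07). DREB19 (AT2G38340), a transcription factor of the family that binds drought-responsive elements, had 8.85, 11.65 and 12.48 in flight cells and 4.80, 5.09 and 6.39 in flight seedlings, and was at least 17-fold higher (adjusted p = 6.32e-07). ICL (AT3G21720), the isocitrate lyase of the glyoxylate cycle, stood out for 1 seedling array: its levels were 13.31, 14.73 and 15.26 in flight cells and 7.97, 8.73 and 12.37 in flight seedlings (difference 5.16, SE 0.70, adjusted p = 1.38e-05). TH8, a cytosolic thioredoxin, differed by 4.97, ERF71, also known as HRE2 and a group VII ethylene response factor of the low-oxygen response, by 4.70, CYP81D8, a cytochrome P450, by 4.38 and SOUL-1, a haem-binding protein, by 4.13 (adjusted p between 4.61e-06 and 3.27e-05). In each of these 4 genes the lowest cell array was above the highest seedling array, as the naming rule required. Over all 12 leading genes the differences ran between 4.13 and 8.33. Without cell replicate 5 the same 12 genes spanned 4.11 to 9.02, and within canister G 2.91 to 7.04. The naming rule had chosen these genes for separate groups on the same arrays, so the sign of these ranges is no finding.

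The genes that led in the other direction were by the naming rule bright in every seedling array, and they were mostly lost in the background of the cell arrays. GRP-3 (AT2G05520), a glycine-rich cell wall protein, had 6.53, 9.54 and 10.09 in flight cells and 14.96, 15.90 and 16.12 in flight seedlings (difference -6.91, SE 0.67, adjusted p = 2.15e-07). ACT2 (AT3G18780), the main actin of vegetative organs, had 6.59, 8.82 and 10.58 in flight cells and 15.08, 15.21 and 15.67 in flight seedlings (difference -6.63, SE 0.67, adjusted p = 3.22e-07). The seedling arrays lay close together for ACT2, while the cell arrays were widely spread. AZI1 (AT4G12470), a lipid-transfer-like protein of defence priming, had 4.62, 6.45 and 8.81 in flight cells and 13.19, 13.36 and 13.67 in flight seedlings. No cell array was above background for AZI1, which was at least 16.7-fold lower in flight cells (adjusted p = 3.22e-07). XTH4 (AT2G06850), which cuts and rejoins xyloglucan of the wall, was at least 17.2-fold lower on the same ground, with 5.21, 6.80 and 9.17 in flight cells and 12.89, 13.45 and 14.02 in flight seedlings.

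The other 8 leading genes lower in cells included 2 major latex protein-like genes, MLP34 and MLP28, at -6.42 and -6.13. They also included the lectin gene JAL22, at -6.76, and PYK10, the beta-glucosidase stored in ER bodies of roots and seedlings, at -6.04. Further members were DOT1, a glycine-rich protein gene needed for leaf venation, and CWLP, a linker of wall and plasma membrane. The list was completed by PI4K GAMMA 7 and the brassinosteroid signalling kinase gene BSK1. All cell arrays lay below all seedling arrays for each of the 12, as the naming rule required. No cell array was above background for 5 of them, AZI1, XTH4, CWLP, PI4K GAMMA 7 and BSK1, so only bounds hold there: CWLP was at least 9.04-fold, PI4K GAMMA 7 at least 6.05-fold and BSK1 at least 5.84-fold lower. The measured differences of the 12, those 5 included, ran between -6.91 and -5.95. They ran between -7.34 and -5.70 without cell replicate 5, and between -7.07 and -5.22 within canister G. Here too the naming rule had set the sign of these ranges beforehand.

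**Figure D2:**
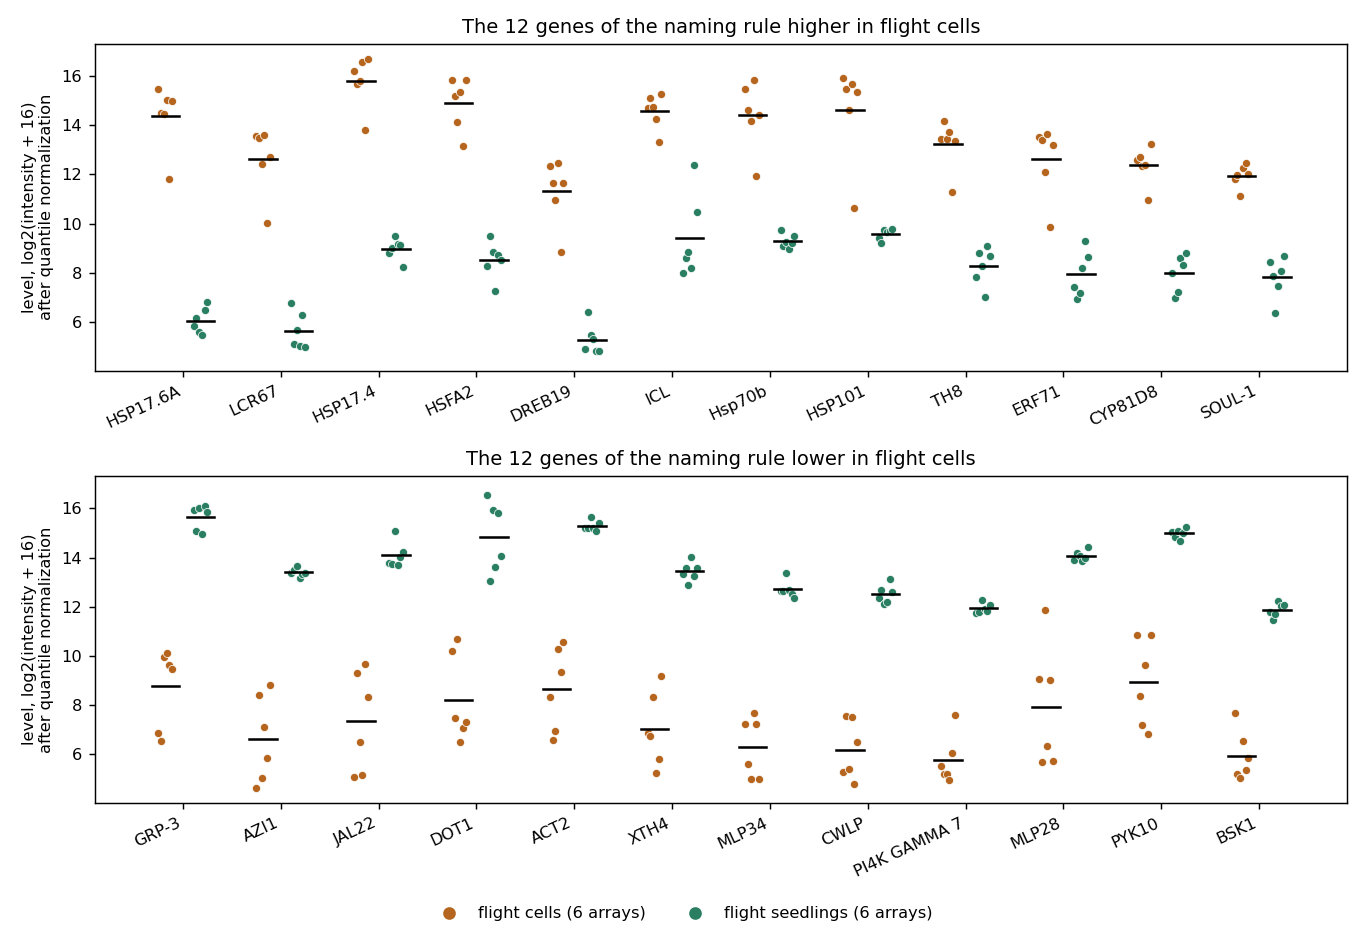
Level of the 12 leading genes higher and the 12 leading genes lower in flight cells, log2(intensity + 16) after quantile normalization, with a point for each of the 6 flight cell arrays and the 6 flight seedling arrays. The groups do not overlap in any of the 24 genes, which the naming rule required, and the points of the cells are more widely spread.

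Heat shock genes and chaperones were the gene group of nuclear genes with the largest share higher in cells. Of 37 members measured, 19 were higher (51.4%) and 6 lower (16.2%) in flight cells, against 12.7% and 14.8% of all probe sets, and the median difference was 2.03 against 0.07. Of the 19, 11 were above background on all 6 cell arrays. The cell arrays did not share this evenly: the median level over the 37 members was 11.63 to 12.33 on 4 cell arrays, and 9.35 and 9.03 on cell replicates 3 and 5, against 9.06 to 9.34 on the 6 seedling arrays. With cell replicate 5 left out 22 were higher and 6 lower.

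Members of the group lay on both sides. HSP90.1, the heat-induced cytosolic HSP90, was 3.96 higher in flight cells (adjusted p = 0.00021), and MBF1C, a transcriptional coactivator of the heat response, was 3.81 higher (adjusted p = 9.7e-05). HSC70-1 (AT5G02500), the abundant constitutive HSP70, had 12.24, 13.52 and 14.09 in flight cells and 16.19, 16.62 and 16.71 in flight seedlings (difference -3.13, SE 0.55, adjusted p = 0.000282). HSP90.7, which works inside the endoplasmic reticulum, was at -4.07 (adjusted p = 7.49e-05) and HOP1, a cochaperone that joins HSP70 to HSP90, by -2.77 (adjusted p = 0.00188). The groups did not overlap for 9 members with cells above and 5 with cells below, against 3.31% and 8.85% of all probe sets. HSFA1A, a heat shock factor present without stress, was among the 6 lower members, at -2.13, together with the mitochondrial cochaperone gene MGE2 and GOLS1, a galactinol synthase gene.

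Of 27 genes of the low-oxygen response 4 were higher (14.8%) and 6 lower (22.2%) in flight cells, with a median of -0.56. These shares were near the 12.7% and 14.8% of all probe sets. ADH1 (AT1G77120), the alcohol dehydrogenase of fermentation, had 14.14, 14.81 and 15.20 in flight cells and 11.09, 11.81 and 14.08 in flight seedlings (difference 2.49, SE 0.61, adjusted p = 0.0048), and its groups touched without overlapping. HRE2, given above, SUS4, a sucrose synthase gene, at 2.23, and SRO5 at 2.92 were the others higher. PDC1 and SUS1, of the same fermentation route, did not pass the test (-0.56 and -0.32). The constitutive oxygen-sensing factors of group VII were all lower: RAP2.3 by -5.75, RAP2.2 by -3.57 and RAP2.12 by -3.11 (adjusted p = 2.15e-07, 0.00353 and 0.0019). RAP2.3 held the same rank, near the top, on all 6 seedling arrays, so that quantile normalization gave it 17.48 on each, against 10.26, 11.98 and 12.65 in flight cells. PCO1, an oxidase that marks these factors for breakdown, was at least 1.19-fold lower, with overlapping groups.

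Among the lists, transcripts of the mitochondrial genome had the largest share of members higher in flight cells, although its 74 probe sets were put together after their values had been seen. Of these, 49 were higher (66.2%) and 2 lower (2.70%) in flight cells, against 12.7% and 14.8% of all probe sets. The median difference was 2.79. Of the 49, 35 were above background on all 6 cell arrays, where 0.747% of all probe sets were called higher with that brightness. For 43 of the 74 every cell array was above every seedling array, against 3.31% of all probe sets. cox1, a subunit of cytochrome oxidase, had 16.12, 16.80 and 17.24 in flight cells and 11.92, 12.16 and 12.44 in flight seedlings (difference 4.47, SE 0.54, adjusted p = 3.42e-06). nad7, a subunit of complex I, had 11.14, 12.88 and 13.29 in flight cells and 6.01, 7.34 and 8.40 in flight seedlings (difference 5.21, SE 0.60, adjusted p = 2.3e-06). All cell arrays, cell replicate 5 included, lay well above the seedling arrays for cox1. The subunit cox2 differed by 4.69 and matR, the maturase encoded in an intron, by 4.44. The open reading frame orf131 ran the other way, at -2.51 (adjusted p = 0.0023). The 5S ribosomal RNA control, which is no mitochondrial transcript, was also 4.69 higher on the cell arrays, and the part of the RNA make-up in the mitochondrial difference was not tested.

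Plastid transcripts were lower where they were called, with 1 exception. Of 78 probe sets of the chloroplast genome, also grouped after their values had been seen, 1 was higher and 20 (25.6%) were lower in flight cells. The median was -0.86. Over all probe sets 12.7% were higher and 14.8% lower. All 78 members were above background on at least 3 seedling arrays. In the class brightest in ground seedlings 2046 of 4550 probe sets were lower, with a median difference of -1.57. psbA, the D1 protein of photosystem II, had 9.62, 11.30 and 12.41 in flight cells and 14.48, 14.88 and 15.74 in flight seedlings (difference -3.78, SE 0.59, adjusted p = 7.5e-05). rbcL, the large subunit of rubisco, had 7.94, 12.28 and 13.07 in flight cells and 13.91, 15.22 and 16.12 in flight seedlings (difference -3.53, adjusted p = 0.00129). Cells were below seedlings on every array for both. The 1 member higher in cells was clpP, a protease subunit, at 1.99 (adjusted p = 0.00987).

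Nuclear genes of the photosystems, antennae and rubisco were lower or not called. Of 31 members 13 were lower (41.9%) and 0 higher in flight cells (limma; 0 higher also without quantile normalization), with a median of -1.52. Over all probe sets 14.8% were lower and 12.7% higher, and in the class brightest in ground seedlings 2046 of 4550 were lower. All 31 members were above background on at least 3 seedling arrays. PSAD-1, a subunit of photosystem I, had 5.46, 6.88 and 8.61 in flight cells and 9.15, 9.98 and 10.86 in flight seedlings (difference -3.30, SE 0.62, adjusted p = 0.000486). Of the 31, 8 were below background on every cell array. Of 20 genes of chlorophyll synthesis 4 were lower and 1 higher, but 3 lower and 5 higher without quantile normalization. Light signalling had 10 lower and 1 higher of 27 (9 and 4 without quantile normalization), with a median of -1.33. PHYA, the photoreceptor that accumulates in the dark, led that group, with 5.35, 7.23 and 9.13 in flight cells and 11.34, 11.68 and 12.11 in flight seedlings (difference -4.57, SE 0.63, adjusted p = 1.57e-05). BBX21, a B-box factor of seedling greening, followed at -3.48.

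**Figure D3:**
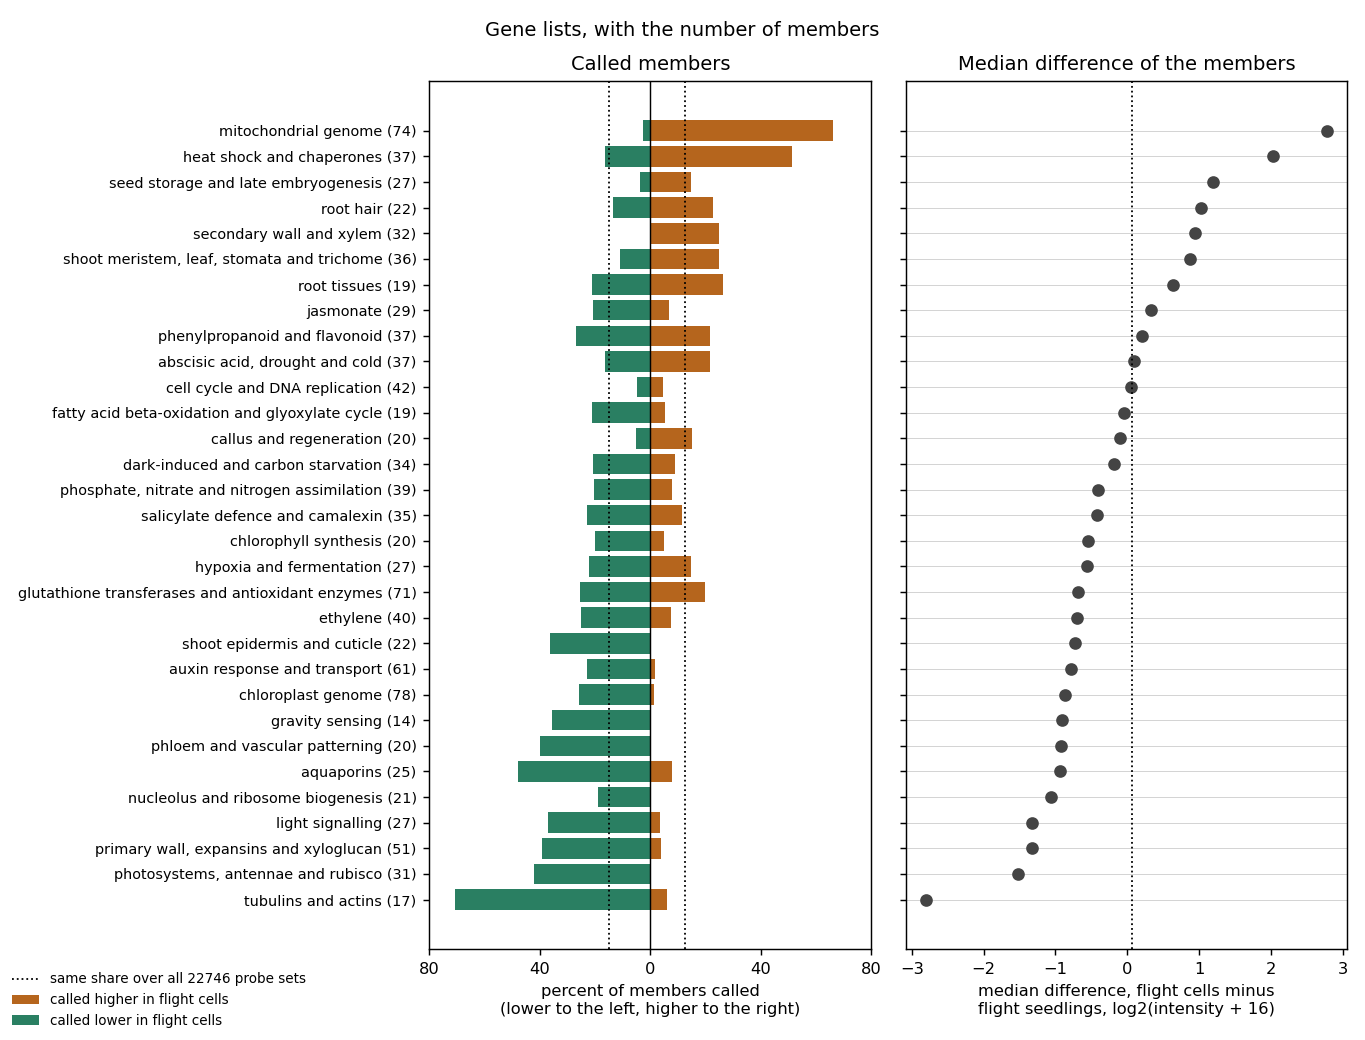
For each gene list, the percent of members called higher and lower in flight cells (left) and the median difference, flight cells minus flight seedlings in log2 (right), with the values over all probe sets for reference (12.7% higher, 14.8% lower, median 0.07). The mitochondrial genome and the heat shock genes have the largest shares higher, and tubulins and actins the largest share lower.

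Genes of the growing cell wall and of the cytoskeleton held more calls lower than higher in flight cells. Tubulins and actins had 12 of 17 lower (70.6%) and 1 higher, with a median of -2.81. Over all probe sets 14.8% were lower and 12.7% higher, and in the class brightest in ground seedlings 2046 of 4550 were lower. TUB6, a beta subunit of microtubules with no cell array above background, was at least 2.46-fold lower, and TUA6, an alpha subunit, differed by -3.45 (adjusted p = 0.000199 and 0.000292). Of 51 genes of the primary wall, expansins and xyloglucan enzymes 20 were lower (39.2%), 2 higher and 29 not called, with a median of -1.33. Without quantile normalization 21 were lower and 10 higher. Of the 51, 45 were above background on at least 3 seedling arrays. XTH15, another xyloglucan enzyme, had 5.00, 6.43 and 9.35 in flight cells and 10.57, 11.28 and 11.62 in flight seedlings (difference -4.60, SE 0.65, adjusted p = 2.36e-05). CTL1, a chitinase-like protein needed for cellulose synthesis, differed by -4.56 (adjusted p = 8.26e-05). The groups were separate for both genes.

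Of 25 aquaporins, the water channels, 12 were lower (48.0%) and 2 higher in flight cells and 11 did not pass the test, with a median of -0.93. Over all probe sets 14.8% were lower, and in the class brightest in ground seedlings 2046 of 4550 were. Of the 25, 21 were above background on at least 3 seedling arrays. DELTA-TIP, a channel of the vacuolar membrane, had 4.82, 6.86 and 8.96 in flight cells and 11.71, 12.62 and 13.03 in flight seedlings, and with no cell array above background it was at least 9.29-fold lower (adjusted p = 2.29e-06). PIP1;5, of the plasma membrane, differed by -5.27 (adjusted p = 1.19e-05). PIP2E was at least 5.87-fold lower. Most aquaporin and wall genes called lower were below background on at least 4 of the 6 cell arrays. This is not particular to them: of all 22746 probe sets 3990 were above background on 3 or more cell arrays.

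Genes of differentiated tissues were lower in flight cells where they were bright and, in part, higher where they were dim. The same gradient ran through all probe sets and is not particular to these genes. Over all probe sets 12.7% were higher and 14.8% lower. Shoot epidermis and cuticle genes had 8 lower and 0 higher of 22 in flight cells (4 higher without quantile normalization), with a median of -0.73. LTPG1, which exports cuticular lipids, and PDF1, a marker of the outermost shoot layer, differed by -3.55 and -3.30 (adjusted p = 0.000107 and 0.000587). Phloem and vascular patterning genes had 8 lower and 0 higher of 20 (2 higher without quantile normalization), among them PP2-A1, a phloem lectin gene, at least 2.06-fold lower. Secondary wall and xylem genes, by contrast, had 8 higher and 0 lower of 32 (1 lower without quantile normalization), but none of those 8 was above background on all cell arrays. The same held for the 5 root hair genes higher of 22, the 5 of root tissues of 19 and the 9 of shoot meristem, leaf, stomata and trichomes of 36: in none of them were all 6 cell arrays above background. Among bright root genes RHD3, needed for straight root hairs, was at least 1.70-fold lower and SHR, which specifies the endodermis, differed by -2.16 (adjusted p = 3.91e-05 and 0.01).

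**Figure D4:**
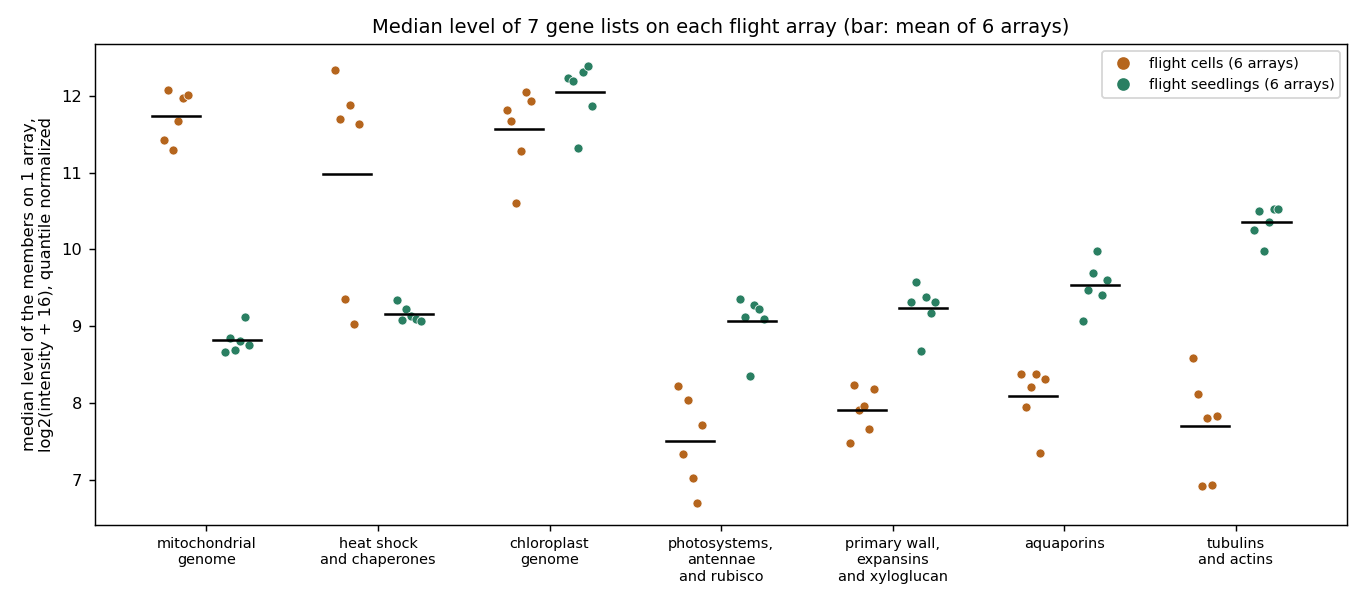
Median level of 7 gene lists on each of the 12 arrays, log2(intensity + 16) after quantile normalization, with flight cells left of flight seedlings. Cell replicates 3 and 5 are at 9.35 and 9.03 for heat shock genes, near the seedlings' 9.06 to 9.34, and the other 4 cell arrays are at 11.63 to 12.33.

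The next lists stand against 12.7% higher and 14.8% lower of all probe sets. Of 42 cell cycle and replication genes 2 were higher and 2 lower in flight cells (11 higher and 1 lower without quantile normalization), with a median of 0.06. CDKA;1, the central cell cycle kinase, differed by -2.19 with overlapping groups (limma adjusted p = 0.0164). Nucleolus and ribosome biogenesis had 4 lower and 0 higher of 21 (0 higher also without quantile normalization), led by EBP1 at -3.13. In beta-oxidation and the glyoxylate cycle ICL, described above, was the 1 of 19 genes higher (4 without quantile normalization), while 4 were lower. PCK1, which turns the product of that cycle towards sugar, was one of them, with 7.95, 11.77 and 12.09 in flight cells and 12.79, 13.38 and 13.98 in flight seedlings (difference -2.53, SE 0.69, adjusted p = 0.00953). So ICL and PCK1 lay on opposite sides. ACX1 and AIM1, of beta-oxidation itself, differed by -2.88 and -2.56. Seed storage and late embryogenesis had 4 higher and 1 lower of 27 (16 higher and 0 lower without quantile normalization).

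Hormone genes were set against the same 12.7% higher and 14.8% lower of all probe sets. Auxin response and transport had 14 lower and 1 higher of 61 in flight cells (13 and 9 without quantile normalization). The repressor IAA7 was at least 2.98-fold lower and the auxin exporter ABCB19 differed by -3.33 (adjusted p = 0.000589 and 0.000352). Gravity sensing had 5 lower and 0 higher of 14 (0 higher also without quantile normalization), with ARG1, of the root's gravity response, at -2.65. Ethylene genes had 10 lower and 3 higher of 40 (12 and 8 without it). ARD3, a dioxygenase of the methionine salvage that follows ethylene synthesis, had 11.73, 13.95 and 14.72 in flight cells and 5.79, 8.90 and 11.82 in flight seedlings (difference 4.66, SE 0.81, adjusted p = 0.000257), and the groups overlapped by 1 array of each. Jasmonate genes had 6 lower and 2 higher of 29, but 6 lower and 10 higher without quantile normalization, with the lectin gene JR1 at -4.87 (adjusted p = 2.29e-06). Salicylate defence had 8 lower and 4 higher of 35, but 7 lower and 10 higher without quantile normalization, the highest being the defensin LCR67.

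Of 71 glutathione transferases and antioxidant enzymes 14 were higher (19.7%) and 18 lower (25.4%) in flight cells, against 12.7% and 14.8% of all probe sets (22 and 16 genes without quantile normalization); 2 of the 14 were above background on all cell arrays. One was CAT1, a catalase, with 9.09, 11.67 and 12.38 in flight cells and 6.14, 8.04 and 8.60 in flight seedlings (difference 3.67, SE 0.65, adjusted p = 0.000305). The catalase CAT3 ran the other way, with 7.62, 11.74 and 11.98 in flight cells and 16.34, 16.49 and 16.88 in flight seedlings (difference -5.43, SE 0.68, adjusted p = 5.52e-06). In both catalases the groups did not overlap, and cell replicate 5 had the lowest cell value. GSTU19, a glutathione transferase, was 2.52 higher (adjusted p = 0.0018), and GSTU27 and GSTF10 differed by -5.38 and -5.21.

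Drought and cold genes had 8 higher (21.6%) and 6 lower (16.2%) of 37 in flight cells (12 and 5 without quantile normalization). This list and those that follow stand against 12.7% higher and 14.8% lower of all probe sets. DREB2A, a regulator that acts in drought and upstream of heat shock factors, had 8.41, 12.88 and 13.33 in flight cells and 9.40, 9.87 and 10.33 in flight seedlings (5.27-fold higher by the means, adjusted p = 0.0157). Cell replicate 5 lay below every seedling array for DREB2A, and the other 5 cell arrays above all of them. COR47 and ERD10, dehydrins of cold and drought, differed by -4.92 and -4.07 (adjusted p = 3.03e-06 and 0.000165). Phenylpropanoid genes had 8 higher (21.6%) and 10 lower (27%) of 37, but 15 higher and 12 lower without quantile normalization. In nitrogen and phosphate nutrition 3 were higher (7.69%) and 8 lower (20.5%) of 39, but 9 higher and 8 lower without quantile normalization. GLN1;3, a glutamine synthetase of the cytosol, was 1.75 higher (limma adjusted p = 0.0252). GLN1;2 and the plastid enzyme GS2 differed by -2.79 and -2.53 and the nitrate transporter NRT1.1 by -3.03. Carbon starvation genes had 7 lower (20.6%) and 3 higher (8.82%) of 34, and 8 lower and 7 higher without quantile normalization. Callus and regeneration genes had 1 lower (5%) and 3 higher (15%) of 20, and 2 lower and 7 higher without it.

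One ground array stood apart for heat shock genes. Without quantile normalization the mean level of the heat shock list was 12.71 on ground seedling replicate 1. It was 8.81 to 9.12 on the other 5 ground seedling arrays. After quantile normalization over the 24 arrays HSFA2 was at 15.20 on ground seedling replicate 1 and at 8.53 to 9.19 on the other 5. Ground differences of heat shock genes in the text are therefore given with and without it.

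To ask whether the difference between the materials in orbit departed from that on the ground, the difference of the 2 differences was fitted over all 24 arrays. No probe set passed (limma, Benjamini-Hochberg; 1479 of 22746, or 6.50%, had an unadjusted p under 0.05, and the smallest adjusted p was 0.136). On the ground 6.53% of probe sets were higher and 9.68% lower in cells. The gene with the smallest p was HSFA2: cells exceeded seedlings by 6.41 in flight and by 0.76 on the ground, so that the differences departed by 5.65 (SE 1.11, adjusted p = 0.136). Without ground seedling replicate 1 HSFA2 was 1.78 higher in cells on the ground and the departure was 4.58 (SE 0.90, adjusted p = 0.155). It passed with a pseudocount of 64 (adjusted p = 0.0180), with a trended and robust prior (adjusted p = 0.0140) and without cell replicate 5 of the flight (adjusted p = 0.0485); over all alternatives the smallest adjusted p of any probe set lay between 0.0140 and 0.434. The next named genes were SKB1, a protein arginine methyltransferase gene, at -4.09 and MT3, a metallothionein gene, at -3.44 (adjusted p = 0.359 and 0.36).

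Within the heat shock group 19 of 37 members had an unadjusted p under 0.05 for this departure, against 6.50% of all probe sets, and none passed after adjustment. The median difference between cells and seedlings was 2.02 in flight for these 37 genes and -0.44 on the ground. Without ground seedling replicate 1 the medians were 2.01 in flight and 0.32 on the ground, so that the sign on the ground turned, and 13 of 37 members had an unadjusted p under 0.05, against 5.69% of all probe sets, with none passing after adjustment. Over all fits that left out 1 array this count ran from 13 to 20. HSP101 differed by 5.05 in flight and by 0.83 on the ground, or 1.71 on the ground without that array (adjusted p of the departure 0.469, and 0.731 without it). HSP17.6A and HSP17.4, with the largest heat shock differences in flight, were also higher in cells on the ground. HSP17.6A differed by 8.35 in flight and 4.56 on the ground, or 6.08 without that array. HSP17.4 differed by 6.91 and 2.73, or 4.18, and HSP23.6-MITO by 4.48 and 3.13, or 4.08. On the ground with all arrays, limma adjusted p was 0.00124, 0.0390 and 0.00316 for these genes. It was 0.505 for HSFA2 and 0.512 for HSP101. HOP3, a cochaperone, differed by 2.23 in flight and by -2.51 on the ground, or -1.72 without ground seedling replicate 1. The 27 low-oxygen genes had 1 member, SIP4, with an unadjusted p under 0.05. ERF71, the HRE2 of that list, differed by 4.69 in flight and 4.29 on the ground, and ADH1 by 2.52 and 2.92. The chloroplast genome had a median of -0.84 in flight and 0.29 on the ground, with 6 of 78 members at an unadjusted p under 0.05; without ground seedling replicate 1 the ground median was 0.04 and the count 3. For the mitochondrial genome the median difference was 2.79 in flight and 2.95 on the ground, with 1 of 74 members at an unadjusted p under 0.05 and 0 of 74 without ground seedling replicate 1.

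**Figure D5:**
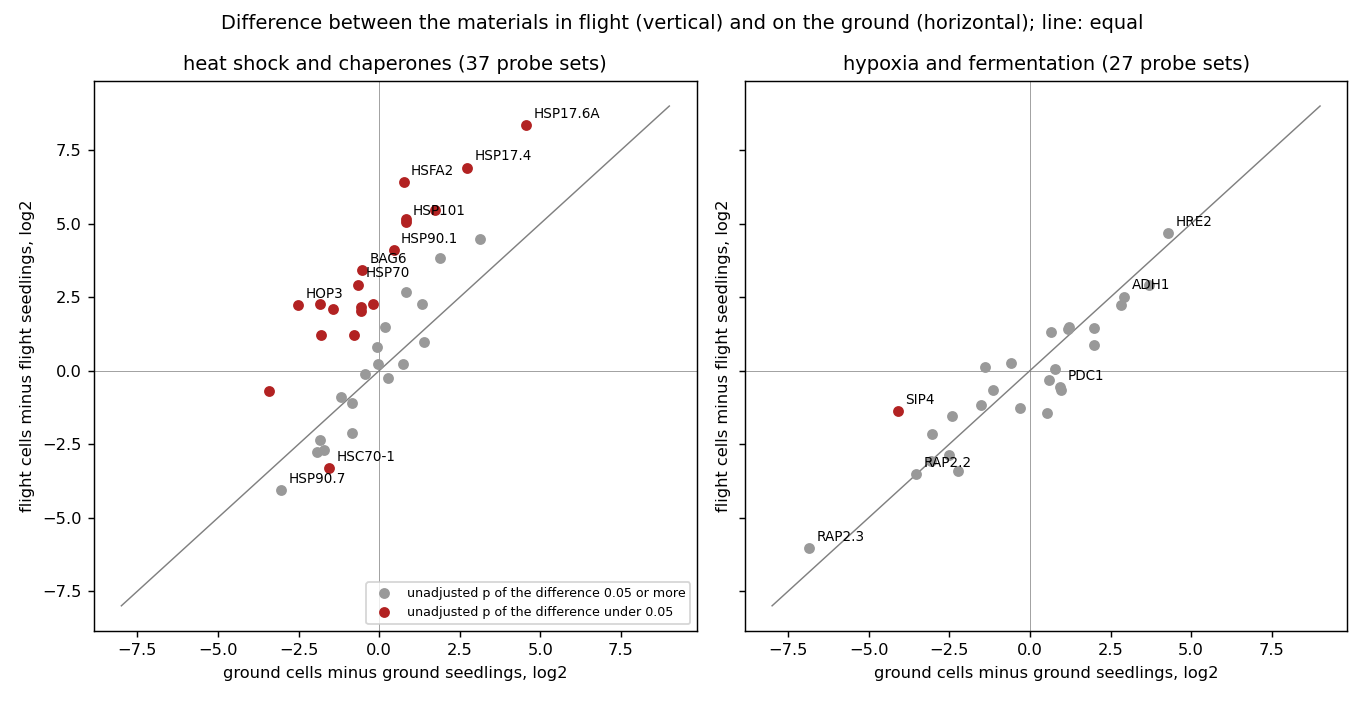
Difference between cells and seedlings in flight (vertical axis) against that on the ground (horizontal axis), in log2, for each member of the heat shock and the low-oxygen lists, with ground seedling replicate 1 included; the red points have an unadjusted p under 0.05 for the departure of one from the other. Of the 37 heat shock genes 19 are red, HSFA2 among them with 6.41 in flight and 0.76 on the ground, and of the 27 low-oxygen genes 1 is red.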

How the data were processed

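Intensities of 24 ATH1 arrays were used as deposited by the authors, linear MAS5 signal made in Affymetrix Expression Console, as named in the submitters' processing notes; the trimmed mean of each array was 500, so the authors had scaled the arrays to one level. The p-values, q-values and log2 fold changes in the authors' deposited tables compare flight with ground and were not used; the gene columns of those tables named the probe sets. Of 22746 probe sets that are not Affymetrix controls, 21139 paired with 1 gene and 8929 of these had a symbol in RefSeq; 819 paired with several genes and name none.

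Levels were log2(intensity + 16), quantile normalized over 12 arrays, or over 24 for the departure from the ground and the correlations between arrays. limma 3.58.1 (lmFit and eBayes, R 4.3.3) tested cells against seedlings with no covariate, two-sided; p-values were adjusted over all probe sets (Benjamini-Hochberg, threshold 0.05); the scripts were tested on simulated data. Exact permutation tests for array measures ran in scipy 1.17.1.

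Genes named without a list are the 12 largest differences in each direction, 1 probe set a gene, with separate groups and all 6 arrays of the brighter material above background; for lists, up to 3 called members in each direction with all 6 arrays of the brighter material above background, or the member of smallest p where none was called, and every heat shock and low-oxygen gene could be named; organelle genes named were chosen after their values were seen. A bound on a fold sets the brighter mean against, per array, the higher of the lowest signal above background and the gene's own signal. Of 1029 list entries 912 had a probe set of their own. The members and the lists were chosen with earlier results of these data known. Alternatives changed the pseudocount, normalization, background filter, prior, array weights, canister, threshold and replicates.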

Additional observations from a re-analysis of the deposited data

Results flagged for a closer look

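In groups of 6 arrays, a sample was looked at again where its gap to the nearest other value, as a share of the group's range, exceeded Dixon's 95% critical value. This held for 22 of 228 groups of values checked, and chance alone gives about 5% of groups. Nothing in these values was tested further.

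Flight cell replicate 5 stood apart for 76.7% of probe sets above background. It was also the lowest of the 6 cell arrays for 9 genes, at 11.80 for HSP17.6A, 10.00 for LCR67, 13.81 for HSP17.4, 10.64 for HSP101, 11.30 for TH8, 8.41 for DREB2A, 9.09 for CAT1, 13.90 for GSTU19 and 7.62 for CAT3. Among the other cell arrays, replicate 3 was low for the 3' minus 5' signal of ubiquitin, at 0.96, and high for COP1, at 9.72, while replicate 4 was low for HOP1, at 5.47.

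Flight seedling replicate 3 was high for MLP34, at 13.37, and low for PSBR at 10.15, PP2-A1 at 9.63, SWEET11 at 9.78, ARR1 at 8.06 and GS2 at 9.98. Seedling replicate 1 was low for HEMA1, at 9.83, and for CDKA;1, at 10.93. Seedling replicate 2 was low for AIM1, at 9.57.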

How the results depend on the processing

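The count of 6270 probe sets was 10795 without quantile normalization, 4079 with probe sets above background on at least 6 of 12 arrays (523 higher and 3556 lower in cells), 2778 at an adjusted p under 0.01 and 3400 with all 6 arrays of the brighter material above background, a filter chosen after seeing the data. With canister as a block it was 0. Leaving out 1 array gave 4427 to 6309. Pseudocounts of 1 and 64, normalization over 24 arrays, another prior, array weights, a fit of 4 means and the fits without canister G or without the 2 cell arrays of lowest background stayed within 1.5 times of it. The departure from the ground, with no call, gave 1 with a pseudocount of 64 and 3 with a trended and robust prior (HSFA2, AGP12 and ENODL17); leaving out 1 array gave 0 to 2, the 2 being HSFA2 and HSFA7A without flight cell replicate 5. The share above background differed by -45.7 to -32.4 percentage points when 1 array was left out. Of 107 genes named by the rule, 100 were called in every fit that left out 1 array. KNAT2 alone changed sign, at 0.29 with canister as a block. The rule took genes mostly by large differences on these same arrays, so the 100 do not measure how stable the 6270 calls are. The background of the cell arrays, 171.1 to 1278 in intensity against 79.7 to 158.1 on seedling arrays, limits what can be seen of dim genes in cells. No paired analysis was possible because cells and seedlings held different positions in the hardware and their replicate numbers, given in order of deposit, pair nothing.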
